A study of Homo sapiens with 28 samples.

Results

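The long noncoding RNAs MALAT1, NEAT1, KCNQ1OT1, TUG1, NORAD and OIP5-AS1 were followed through a nucleotide-recoding RNA-sequencing experiment in HEK 293T, an established human embryonic kidney cell line of wild-type genotype. They were chosen by name, and each was matched by its identifier in the gene column of the count table, which held exonic reads for 24678 genes. By that rule 5 of the 6 were found. OIP5-AS1 (ENSG00000247556) had no read assigned to it alone in that column, because each of its 1562 reads was marked ambiguous with an overlapping gene. It is described here through the table's exon assignment instead, where all 6 members were present, and a value from that column is named as such.

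In this assay, cells build 4-thiouridine (s4U) into the RNA they make during a labelling period. A chemical treatment of the extracted RNA makes s4U read as C, so reads from new RNA carry T-to-C mismatches. Labelled cells received 100 µM s4U for 2 h and unlabelled cells received none. RNA was converted with 1 of 3 chemistries. The periodate chemistry used NaIO4 together with TFEA (trifluoroethylamine, pH 5.2), another used iodoacetamide, and the osmium chemistry used OsO4 in the presence of NH3. Every chemistry was paired both with drop-out handling (DO, the common protocols) and improved handling (IH, meant to limit the loss of labelled RNA and of mismatch-bearing reads). There were 2 labelled libraries and 1 unlabelled library for each chemistry and handling, 18 libraries in all. The labels do not say what a replicate number stands for, so the p-values measure the spread between these libraries, which may be technical.

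Long noncoding RNAs act as RNA, and where they sit in the cell and how fast they turn over differ widely among them. MALAT1 is a very abundant nuclear RNA found at nuclear speckles, and NEAT1, encoded beside it, is the scaffold of paraspeckles, nuclear bodies that also hold proteins such as NONO and SFPQ. KCNQ1OT1 is a nuclear RNA transcribed antisense to KCNQ1 from an imprinted locus. TUG1 is present in nucleus and cytoplasm, NORAD is a mostly cytoplasmic RNA that binds PUMILIO proteins, and OIP5-AS1 (also called Cyrano) is known for its long conserved microRNA-binding site. Because a short label marks only what was made during it, an RNA with fast turnover gives a large converted share and a stable RNA a small one.

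In the RefSeq annotation of GRCh38.p14, MALAT1 (ENSG00000251562) spans chr11:65497738-65506516 on the plus strand and NEAT1 (ENSG00000245532) spans chr11:65422798-65445540. KCNQ1OT1 (ENSG00000269821) spans chr11:2608328-2699994. TUG1 (ENSG00000253352) spans chr22:30969265-30979395 on the plus strand, NORAD (ENSG00000260032) chr20:36045618-36050960 on the minus strand and OIP5-AS1 chr15:41282697-41313338 on the plus strand. All were annotated as long noncoding RNA genes except TUG1, which that annotation classed as protein coding. The members' reads were nearly all exonic: over the 18 libraries MALAT1 had 125803 exonic and 632 intronic reads (407 of the latter in the unlabelled periodate library under IH, and 225 without it), and NEAT1, KCNQ1OT1, TUG1 and NORAD had 15 to 25 intronic reads each. Whether counting used strand is not given in the sources used here, so reads of KCNQ1OT1 and OIP5-AS1 could include some of genes that overlap them. Intronic reads were too few for a test of any member, whereas 2380 genes had enough for the intronic share.

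The labelled libraries held 2302209 to 5813077 aligned reads under DO and 2129372 to 4707058 under IH. Contigs holding ribosomal DNA (chromosome 21 with 2 unplaced scaffolds) took 36.0% ± 6.10 (SD, n = 6) of the reads of labelled DO libraries and 9.73% ± 3.43 (SD, n = 6) of those of IH libraries. Among all exonic gene reads, 13.7% ± 2.80 carried a T-to-C mismatch (converted reads) in the labelled DO libraries and 27.3% ± 3.35 in the labelled IH libraries (SD, n = 6 each). In the DO libraries, same-numbered replicates of different chemistries deviated together across genes (correlations of 0.419 to 0.492), whereas the IH libraries did so little (0.0419 to 0.0600). The 6 labelled DO libraries are thus not 6 independent samples.

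The first comparison asked how much of each RNA was recovered under the 2 handlings. All 5 testable members rose under IH, in the labelled and in the unlabelled libraries, and NEAT1 and MALAT1 had the largest changes of the 5. NEAT1 rose about 19-fold, MALAT1 13.9-fold, KCNQ1OT1 5.70-fold, TUG1 3.90-fold and NORAD 2.77-fold in labelled libraries. Handling moved most genes: of 12449 tested, 80.6% were called at an adjusted p under 0.05 and 46.7% were called higher, so a call by itself does not set the members apart. The ribosomal DNA share fell with handling as given above, and its part in these changes was not tested. Levels are exonic reads in CPM (counts scaled to library size, here after TMM normalization), and changes are log2 values from the quasi-likelihood test of edgeR, its p-values adjusted by the Benjamini-Hochberg method over all genes.

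MALAT1 had 182, 404 and 635 CPM as the lowest, median and highest of the 6 labelled DO libraries, and 4269, 5349.6 and 6901 CPM in the 6 labelled IH libraries. The handlings did not overlap, and the lowest IH library stood far above the highest DO library. How many of all genes lacked such overlap was not counted, so a lack of overlap does not set a member apart. The log2 change was 3.79 (SE 0.25, adjusted p = 1.04e-11), and 96.9% of the genes tested had a change no larger. By chemistry it was 3.97 (SE 0.44) with periodate, 3.74 (SE 0.43) with iodoacetamide and 3.67 (SE 0.43) with osmium, values that differ by less than their errors.

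NEAT1 had 23.1, 34.8 and 44.7 CPM in labelled DO libraries and 610.1, 639 and 701 CPM in IH libraries. Among the 5 members its ratio between handlings was the largest, and its IH libraries lay close together. Its log2 change of 4.25 (SE 0.16, adjusted p = 8.66e-15) was at or above that of 98.2% of the genes tested. The changes by chemistry were 4.15 with periodate, 4.42 with iodoacetamide and 4.17 with osmium (SE 0.28 each). In DO libraries NEAT1 was represented by only 23 to 47 exonic reads, against 746 to 1559 in IH libraries, so its DO level is the less precise of the 2.

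KCNQ1OT1 varied most within DO: its lowest, median and highest labelled values were 11.4, 50.8 and 109 CPM under DO and 254, 297 and 312 CPM under IH. The handlings still did not overlap. Its log2 change was 2.51 (SE 0.33, adjusted p = 4.18e-07), and 86.1% of genes had a change no larger. In each of the 3 chemistries DO replicate 1 was above DO replicate 2, by as much as 109 against 14.3 CPM with iodoacetamide. Every other member also had its higher labelled DO level in replicate 1 of each chemistry. MALAT1, for example, had 635 against 184 CPM with periodate. Without the first DO replicate of osmium the log2 change of KCNQ1OT1 was 3.21, and over all single libraries left out it ran from 2.03 to 3.21.

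TUG1 had 24.5, 41.9 and 62.6 CPM in labelled DO libraries and 161, 171 and 195 CPM in IH libraries, with no overlap. The log2 change was 1.96 (SE 0.18, adjusted p = 1.25e-09), and 76.9% of genes had a change no larger. NORAD had 60.0, 87.7 and 109 CPM under DO and 224, 237 and 244 CPM under IH, again with no overlap. Its log2 change of 1.47 (SE 0.16, adjusted p = 2.29e-08) was the smallest of the members, and 67.5% of genes had a change no larger. OIP5-AS1, in the exon assignment, had 3.69, 9.10 and 24.5 CPM under DO and 57.5, 71.0 and 85.0 CPM under IH. Its log2 change was 2.78 (SE 0.26, adjusted p = 1.69e-09 among 13528 genes tested, of which 80.7% were called), so this RNA also rose, from 5 to 25 reads in a labelled DO library to 88 to 181 in an IH library.

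**Figure D1:**
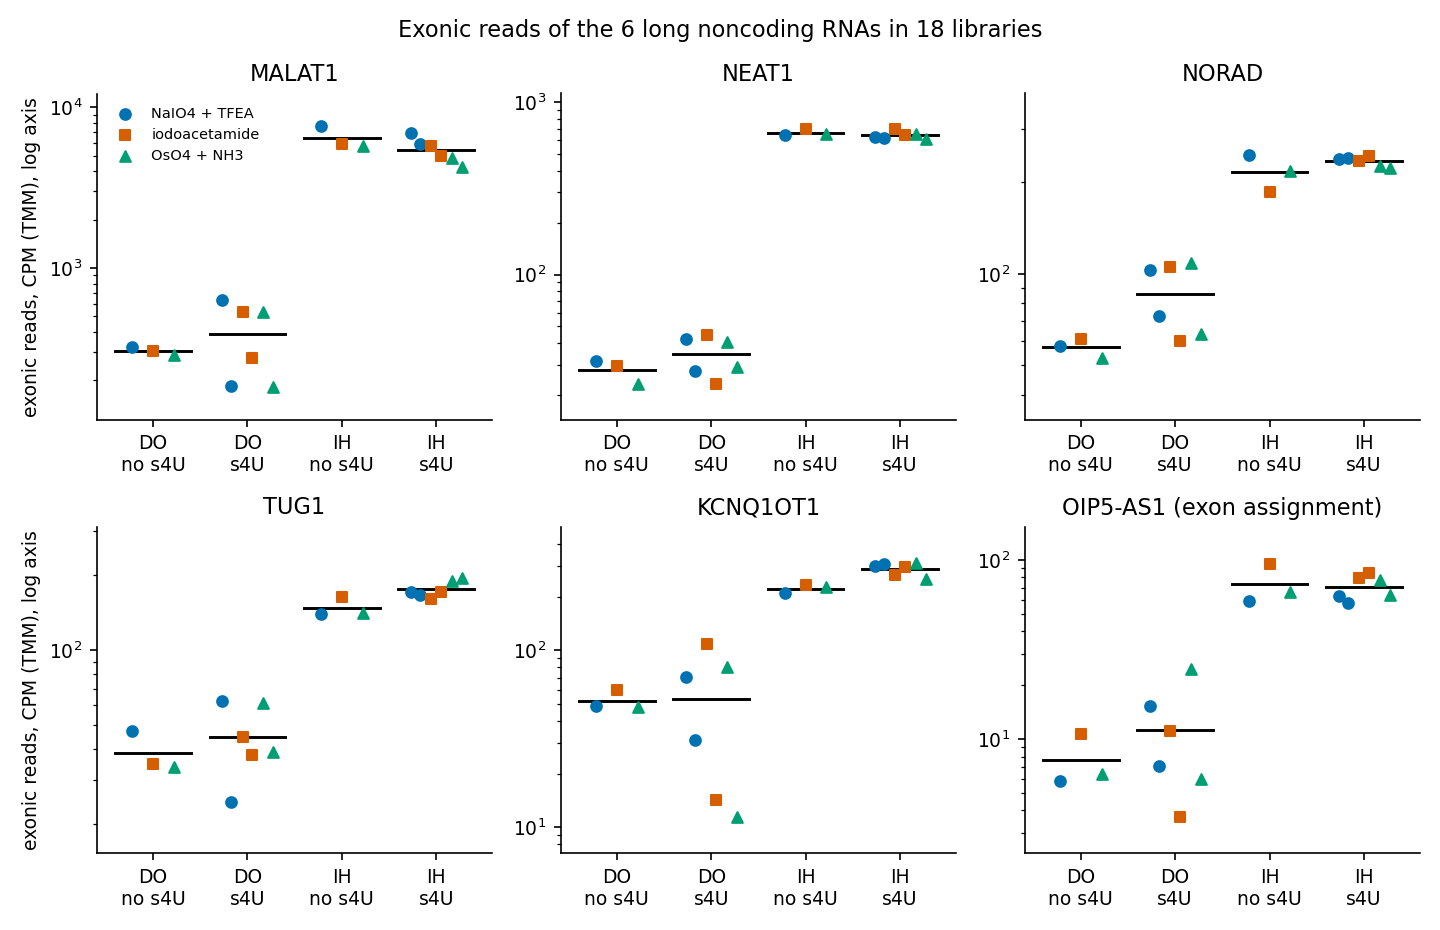
Exonic reads of each member in CPM after TMM scaling (log axis, a range of its own for each panel) in the 18 libraries, by handling (DO or IH) and label. Each point is a library, coloured by chemistry, and the bar is the mean of a group of 3 unlabelled or 6 labelled libraries; OIP5-AS1 is shown from the exon assignment. For each member the DO and IH points do not overlap, and the first and second DO replicates of a chemistry lie far apart for KCNQ1OT1. How common such a lack of overlap is among all genes was not counted.

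The same contrast in unlabelled RNA also called all 5 members higher under IH. MALAT1 had 323, 302 and 289 CPM in the unlabelled DO libraries of periodate, iodoacetamide and osmium, and 7620.4, 5873 and 5751 CPM in the IH libraries in the same order. NEAT1 had 31.7, 29.3 and 23.1 CPM under DO and 645, 694 and 656 CPM under IH. Both RNAs thus stood apart between the handlings in each chemistry without s4U. The log2 changes were 4.58 (SE 0.24, adjusted p = 8.40e-12) for NEAT1 and 4.38 (SE 0.36, adjusted p = 2.06e-09) for MALAT1. They were 2.11 (SE 0.46, adjusted p = 0.000366) for KCNQ1OT1, 1.95 (SE 0.26, adjusted p = 8.57e-07) for TUG1 and 1.91 (SE 0.24, adjusted p = 3.30e-07) for NORAD. Here 72.1% of 12449 genes were called and 41.4% were called higher. OIP5-AS1 changed by 3.28 (SE 0.39, adjusted p = 1.81e-07) in the exon assignment, where 72.1% of 13528 genes were called.

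The test of the difference between the labelled and the unlabelled handling change called none of the 5 members with edgeR, none with DESeq2, and edgeR gave none an unadjusted p under 0.05. Over all genes edgeR called 0 of 12449 (914 at an unadjusted p under 0.05) and DESeq2 called 3 (0.0241%). For MALAT1 the labelled change was 0.59 smaller on the log2 scale (95% CI of the labelled minus unlabelled change -1.41 to 0.23), for NEAT1 0.33 smaller (-0.92 to 0.26) and for NORAD 0.44 smaller (-1.03 to 0.14). For KCNQ1OT1 it was 0.40 larger (-0.78 to 1.58) and for TUG1 0.02 larger (-0.65 to 0.68). These intervals allow differences of more than 1 on the log2 scale for MALAT1, NORAD and KCNQ1OT1. With 1 library left out the KCNQ1OT1 value ran from 0.00073 to 1.10, the latter without osmium DO replicate 1, and stayed uncalled.

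Scaling set the size of these changes but not their direction. With library size taken as all aligned reads, the median gene rose by 0.96 on the log2 scale in labelled libraries, against 0.44 with TMM, and calls split into 6838 higher and 3047 lower (55.8% and 24.9%), against 5813 and 4220 (46.7% and 33.9%). The members then changed by 2.00 (NORAD) to 4.77 (NEAT1). When intronic reads were counted with exonic ones, the changes shrank by more than 1.5 times in fold. They were 0.79 for NORAD, 1.28 for TUG1, 1.84 for KCNQ1OT1, 3.13 for MALAT1 and 3.56 for NEAT1, each still called (79.7% of 15397 genes were). The median gene changed by 0.59 in this setting, and 47.4% of genes were called higher. Intronic reads made up at most 0.567% of the reads of any of the 5 members over the 18 libraries. With the same-numbered libraries of each handling summed over the chemistries, 2 sums against 2, the 5 members were again called, with changes of 1.20 (NORAD, adjusted p = 0.00214) to 3.97 (NEAT1, adjusted p = 3.44e-05), where 72.9% of genes were called.

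**Figure D2:**
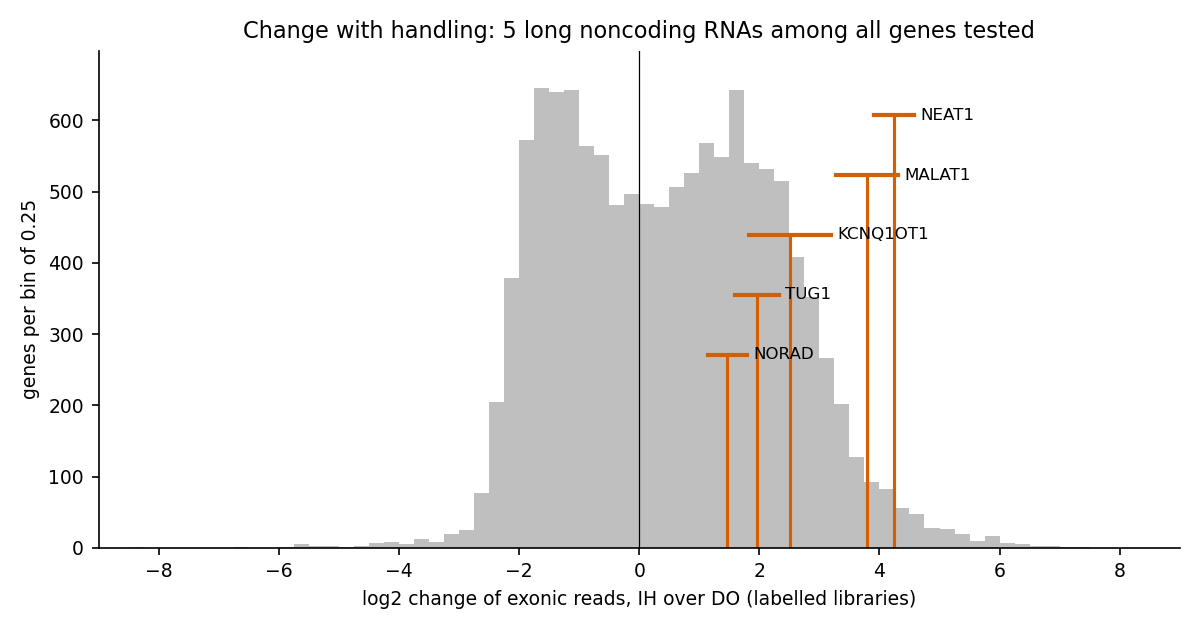
Log2 change of exonic reads from DO to IH in the labelled libraries for the 12449 genes tested (grey bars, number of genes per bin of 0.25). Orange lines mark the 5 members in the gene column, with horizontal bars for 95% confidence intervals; the height of a line carries no value. NORAD at 1.47 and TUG1 at 1.96 lie within the broad right-hand part of the distribution, and MALAT1 at 3.79 and NEAT1 at 4.25 in its upper tail.

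Levels of different RNAs were compared per length, as exonic CPM of all aligned reads, without TMM, per kilobase of the span RefSeq gives the gene. This scale understates genes with long introns or with a short predominant isoform, as the span counts them in full. In labelled IH libraries MALAT1 had 323 ± 61.9, NORAD 22.8 ± 1.81, NEAT1 14.7 ± 0.71, TUG1 8.97 ± 0.68 and KCNQ1OT1 1.63 ± 0.16 reads on this scale (SD, n = 6). Neighbours in this order differed by more than their spread. In labelled DO libraries the order was another: MALAT1 at 16.2 ± 9.15, NORAD at 5.76 ± 1.74, TUG1 at 1.61 ± 0.63, NEAT1 at 0.55 ± 0.16 and KCNQ1OT1 at 0.21 ± 0.15. NEAT1 thus stood below TUG1 under DO and above it under IH.

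The genes most like MALAT1 in level over the 18 libraries were ENSG00000173230 (Pearson r = 0.996) and ENSG00000114857 (r = 0.994), among the 3450 genes that averaged 100 exonic reads or more a library. Those most like NEAT1 were ENSG00000147162 (r = 0.997) and ENSG00000133706 (r = 0.995). MALAT1 and NEAT1 correlated with each other at r = 0.987. All these values share the step between handlings, and the libraries of a handling are not independent, so they are given as a description. The files and reference tables used here do not pair these identifiers with symbols.

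The second comparison asked whether s4U itself changed the number of reads recovered. None of the 5 members was called between labelled and unlabelled libraries by edgeR under either handling, where 0.217% (DO) and 0.225% (IH) of 12449 genes were called, nor by DESeq2, which called 0.353% and 0.169%. Under DO the log2 changes were 0.35 (95% CI -0.25 to 0.96) for MALAT1, 0.28 (-0.21 to 0.78) for NEAT1, -0.03 (-0.96 to 0.90) for KCNQ1OT1, 0.23 (-0.30 to 0.75) for TUG1 and 0.57 (0.11 to 1.02) for NORAD. NORAD alone had an unadjusted p under 0.05 (0.0177, adjusted p = 0.349 by edgeR). The KCNQ1OT1 value ran from -0.73, without osmium DO replicate 1, to 0.42, without iodoacetamide DO replicate 2, when single libraries were left out, and stayed uncalled. Under IH they were -0.24 (-0.79 to 0.32) for MALAT1, -0.05 (-0.37 to 0.28) for NEAT1, 0.37 (-0.36 to 1.10) for KCNQ1OT1, 0.25 (-0.15 to 0.64) for TUG1 and 0.12 (-0.25 to 0.50) for NORAD. Without a filter on low counts edgeR called MALAT1 under DO (0.45, adjusted p = 0.0312), along with 0.393% of 24678 genes. The NEAT1 interval under IH is the narrowest of these, and those of KCNQ1OT1 under both handlings and of MALAT1 and NORAD under DO allow changes of close to 1 on the log2 scale.

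The third comparison concerned the converted share, the percent of a member's exonic reads that carried 1 or more T-to-C mismatches. Under IH the 5 members fell in a fixed order in the main alignment, with KCNQ1OT1 at 61.2% ± 6.21, TUG1 at 45.7% ± 6.07, NEAT1 at 31.2% ± 4.45, NORAD at 25.7% ± 4.78 and MALAT1 at 20.1% ± 2.63 (SD, n = 6). Each was above the next in 6 of 6 libraries. The smallest gap within a library was 11.5 percentage points between KCNQ1OT1 and TUG1, 9.33 between TUG1 and NEAT1, 2.82 between NORAD and MALAT1 and 0.825 between NEAT1 and NORAD. NEAT1 and NORAD, whose spreads overlap, are the pair whose order was least firm. OIP5-AS1 stood at 40.9% ± 7.69 (SD, n = 6) in the exon assignment.

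Under DO the shares were more scattered. KCNQ1OT1 had 33.3%, 46.8% and 73.1% as the lowest, median and highest of the 6 labelled libraries, and its highest value came with osmium replicate 1, its lowest with replicate 2 of that chemistry, which held 9 reads. NEAT1 ranged from 14.7% over 36.4% to 53.8%, and TUG1 from 22.1% over 30.8% to 45.8%. MALAT1, the most deeply covered member, had 16.2%, 19.3% and 25.9%, and NORAD 17.6%, 21.7% and 30.4%. Replicate 1 was above replicate 2 in all 3 chemistries for MALAT1, NORAD, KCNQ1OT1 and TUG1 and in 2 of 3 for NEAT1, with mean gaps of 6.96 points for MALAT1 and 29.8 for KCNQ1OT1. Under IH replicate 1 was higher in 1 or 2 of 3 chemistries, and the mean gaps over the chemistries were at most 5.04 points. The all-gene share of new reads, estimated as described below, was also higher in DO replicate 1 than in DO replicate 2. It was 14.2% against 9.29% with iodoacetamide, 14.7% against 10.2% with periodate and 15.8% against 10.6% with osmium.

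Unlabelled libraries gave the background of this measure. Pooled over chemistries, 5.31% of 62413 MALAT1 reads were converted under IH (95% Wilson interval 5.14 to 5.49), against 1.36% of 1989 KCNQ1OT1 reads (0.935 to 1.97). NEAT1 had 4.37% (3.88 to 4.92), TUG1 4.95% (3.90 to 6.26) and NORAD 3.70% (2.97 to 4.60), so the background was not the same for each RNA. Under DO MALAT1 had 4.34% of 899 reads (3.19 to 5.88), and KCNQ1OT1 and TUG1 had none of 151 and 117 reads (upper bounds of 2.48 and 3.18). These intervals cover counting error only, since reads are not independent molecules, and leave out the spread between libraries. The unlabelled IH libraries of MALAT1 had 6.63% with iodoacetamide, 4.94% with periodate and 5.51% with osmium, each outside its pooled interval. In each labelled IH library each of these 5 members was well above its unlabelled value, as the plot of converted shares shows.

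**Figure D3:**
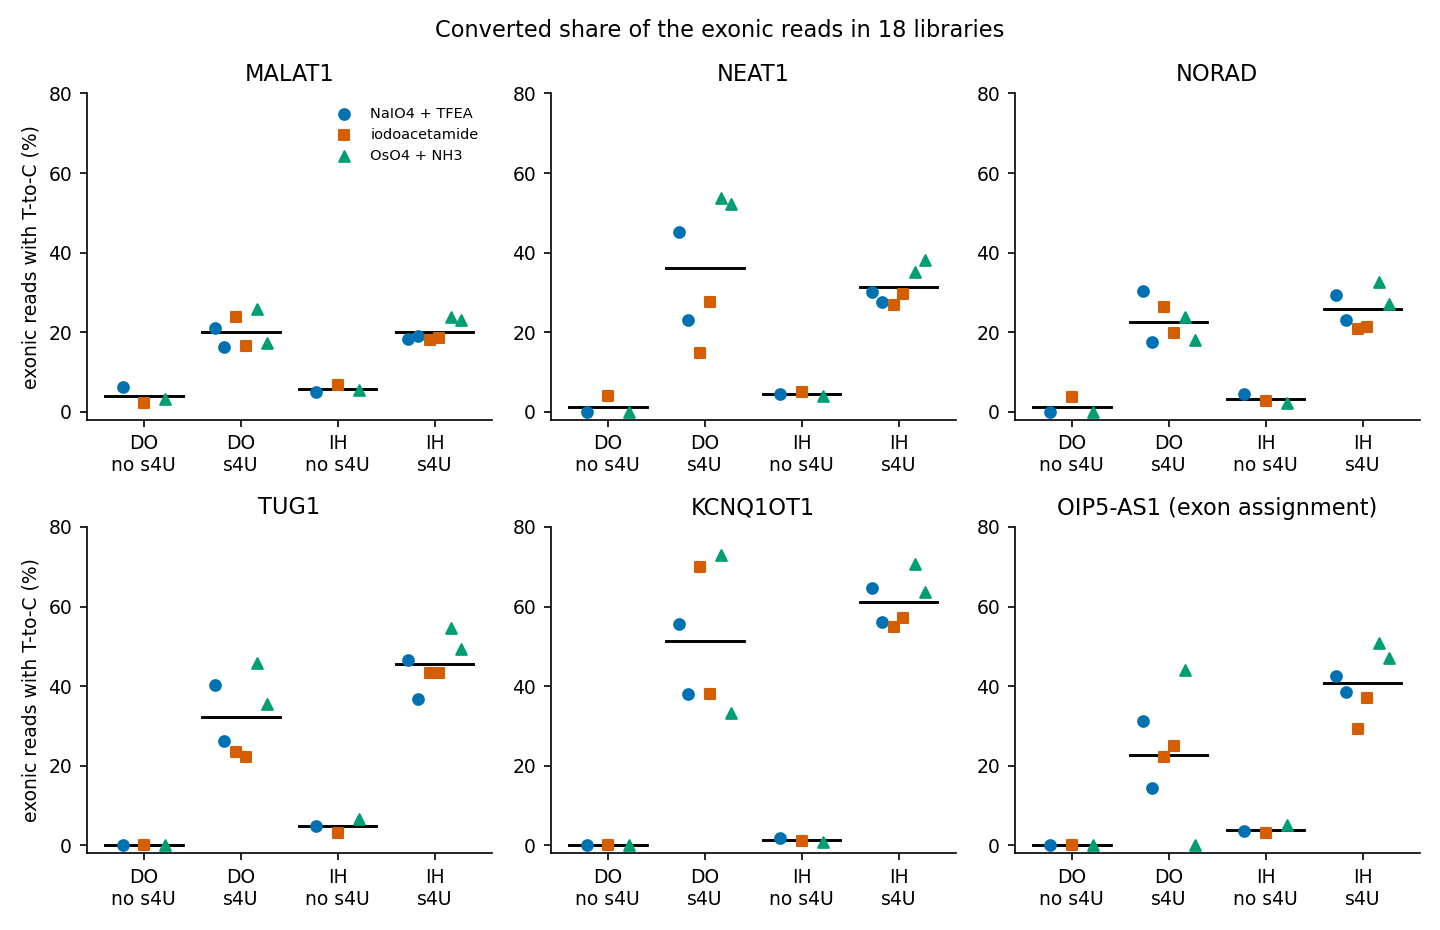
Percent of exonic reads with 1 or more T-to-C mismatches for each member in the 18 libraries, by handling and label. Each point is a library, coloured by chemistry, and bars are means of 3 unlabelled or 6 labelled libraries; OIP5-AS1 is from the exon assignment. The DO and IH means of MALAT1 lie together at 20.2% and 20.1%, whereas those of TUG1 lie at 32.2% and 45.7%.

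Handling raised the converted share of most genes, but not detectably that of MALAT1 or NORAD. Of the 1992 genes with at least 50 exonic reads in every labelled library, 82.0% were called by edgeR, all of them higher under IH, with a median log2 odds ratio of 1.09. Only MALAT1 and NORAD among the members had that many reads, and neither was called. The MALAT1 shares ran from 16.2% to 25.9% under DO and from 17.96% to 23.9% under IH, almost wholly overlapping, and its log2 odds ratio was -0.04 (95% CI -0.39 to 0.31, adjusted p = 0.836). That interval ends well below the median gene, and 1.76% of genes had a value as low. The NORAD shares ran from 17.6% to 30.4% under DO and from 20.8% to 32.7% under IH, and its log2 odds ratio was 0.21 (95% CI -0.33 to 0.75, adjusted p = 0.462), where 5.42% of genes had a value as low.

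The other members were reached with a lower minimum of reads, where 60.6% of 5813 genes (at least 10 reads) and 51.9% of 7472 genes (at least 5) were called. TUG1 was called higher under IH, with a log2 odds ratio of 0.79 (95% CI 0.17 to 1.41, adjusted p = 0.0238 by edgeR at 10 reads). NEAT1 had -0.33 (-0.91 to 0.26, adjusted p = 0.321), with 1.27% of genes as low, and KCNQ1OT1 0.20 (-0.41 to 0.82, adjusted p = 0.584, at 5 reads), with 10.9% as low. OIP5-AS1 had 0.82 (-0.20 to 1.85, adjusted p = 0.168) in the exon assignment, where 52.0% of 7950 genes were called. All 6 converted shares overlapped between the handlings, TUG1 included. Its call was lost when same-numbered libraries were summed over the chemistries (0.88, adjusted p = 0.0672, with 48.0% of 5962 genes called).

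Each change was also tested against that of the median gene instead of against no change. This comparison was not among the planned ones. The median came from the same data and was entered as fixed, so its own error is not in the SE or p-values. The fit also takes the DO libraries as independent, which they are not. MALAT1 lay -1.13 below the median gene on the log2 odds scale (SE 0.17, adjusted p = 4.86e-07 by edgeR) and NORAD -0.87 (SE 0.28, adjusted p = 0.0181), where 20.4% of 1992 genes were called and 10.4% were called lower. At 10 reads NEAT1 lay -1.37 below (SE 0.29, adjusted p = 0.000902), and 4.11% of 5813 genes were called lower; TUG1 was not called, at -0.25 (adjusted p = 0.679). KCNQ1OT1 was not called at 5 reads, at -0.81 (adjusted p = 0.0867, with 3.24% of 7472 genes called lower). In the sums over the chemistries no member was called: MALAT1 had -1.03 (adjusted p = 0.0525), NEAT1 -1.30 (adjusted p = 0.0649) and NORAD -0.75 (adjusted p = 0.370), with 0.252% of 5962 genes called lower. NORAD also lost its call without any 1 of 4 libraries: replicate 1 of iodoacetamide under IH, replicate 1 of periodate under DO, and replicate 2 of either that chemistry or osmium under IH (adjusted p = 0.0551, 0.0708, 0.0614 and 0.0505).

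The chemistries were next compared within IH. In each of the 5 members the mean converted share was highest with osmium. The median log2 odds ratio of osmium over iodoacetamide was 0.39 over 4062 genes under IH. A higher share with osmium than with iodoacetamide thus does not set the members apart. MALAT1 had 23.1% and 23.9% with osmium, 18.3% and 18.9% with periodate, and 17.96% and 18.6% with iodoacetamide, and the osmium libraries did not overlap the others. NEAT1 had 35.2% and 38.05%, 27.5% and 30.1%, and 26.9% and 29.5% in the same order, again without overlap. TUG1 had 49.2% and 54.7% with osmium, above all others. KCNQ1OT1 with 63.7% and 70.8%, and NORAD with 27.2% and 32.7%, overlapped the periodate libraries. How many of all genes had osmium libraries apart from the others was not counted. A lack of overlap here thus does not set a member apart.

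The planned test over the 3 chemistries, fitted with the DO libraries, called none of MALAT1 and NORAD (edgeR; unadjusted p = 0.162 and 0.280), nor any of 1992 genes (52 at an unadjusted p under 0.05). Fitted to the IH libraries alone, a choice made after seeing the data, it called 1.06% of 4062 genes and no member. The nearest was MALAT1 (adjusted p = 0.0582). For osmium minus iodoacetamide the log2 odds ratios in that fit were 0.46 (95% CI 0.19 to 0.72) for MALAT1, 0.55 (0.15 to 0.95) for NEAT1, 0.69 (0.20 to 1.19) for KCNQ1OT1, 0.67 (0.13 to 1.22) for NORAD and 0.50 (-0.06 to 1.06) for TUG1. Of these contrasts MALAT1 was called higher with osmium (adjusted p = 0.0368 by edgeR, with 3.59% of genes called) and the other 4 were not (adjusted p of at least 0.0780). periodate minus iodoacetamide gave 0.04 (-0.23 to 0.30) for MALAT1 and 0.04 (-0.37 to 0.45) for NEAT1.

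Within IH the mean number of mismatches per converted read was highest with osmium in each of the 5 members, although the libraries of NORAD overlapped. The all-gene mismatch rate of new reads, given below by chemistry, also had its highest value with osmium. Under IH a converted MALAT1 read had 3.24 ± 0.39 T-to-C mismatches with that chemistry, 2.29 ± 0.21 with periodate and 2.27 ± 0.11 with iodoacetamide (SD, n = 2). TUG1 had 4.04 ± 0.54, 2.59 ± 0.17 and 2.46 ± 0.10, and NEAT1 3.78 ± 0.53, 2.62 ± 0.05 and 2.54 ± 0.05 (SD, n = 2). KCNQ1OT1 had 3.77 ± 0.40, 2.71 ± 0.32 and 2.77 ± 0.54 (SD, n = 2). NORAD had 4.00 ± 1.48, 2.78 ± 0.64 and 2.74 ± 0.09 (SD, n = 2), and its lower osmium library, at 2.95, was below the higher periodate library, at 3.23. In the pooled IH libraries 13.6% of TUG1 reads had 6 or more mismatches with osmium, against 3.32% with periodate and 2.71% with iodoacetamide. For MALAT1 these were 3.90%, 1.21% and 1.14%. With 2 libraries a chemistry these counts are given without a test.

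Mismatch numbers per read were also turned into an estimated share of new reads, those from RNA made during the 2 h label. A mixture of 2 binomials was fitted, with the mismatch rate of new reads estimated over all genes of a library and the background rate taken from the unlabelled library of its chemistry and handling. Over all genes this estimate came to 12.5% ± 2.76 in DO and 27.3% ± 2.74 in IH libraries (SD, n = 6 each). The rate of new reads was 5.75% ± 1.22 of T positions under DO and 7.45% ± 1.59 under IH. In the IH libraries it was 10.0% and 7.95% with osmium, 6.59% and 5.39% with periodate, and 7.96% and 6.76% with iodoacetamide.

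Under IH the estimated new share was 66.2% ± 5.23 for KCNQ1OT1, 43.6% ± 6.01 for TUG1, 40.6% ± 7.37 for OIP5-AS1, 28.9% ± 4.54 for NEAT1, 23.6% ± 5.39 for NORAD and 17.2% ± 2.46 for MALAT1 (SD, n = 6). KCNQ1OT1 was far above the all-gene share, NEAT1 and NORAD were within their own spread of it, and MALAT1 was below it. Under DO the means were 57.8% ± 19.4, 30.0% ± 11.6, 21.8% ± 18.3, 37.8% ± 17.1, 19.5% ± 6.35 and 18.8% ± 3.78 in the same order. The MALAT1 estimates of the 2 handlings differed by less than their spread, although the all-gene share was more than 2 times as high under IH. NEAT1 had a higher mean under DO than under IH, from 23 to 47 reads a library.

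**Figure D4:**
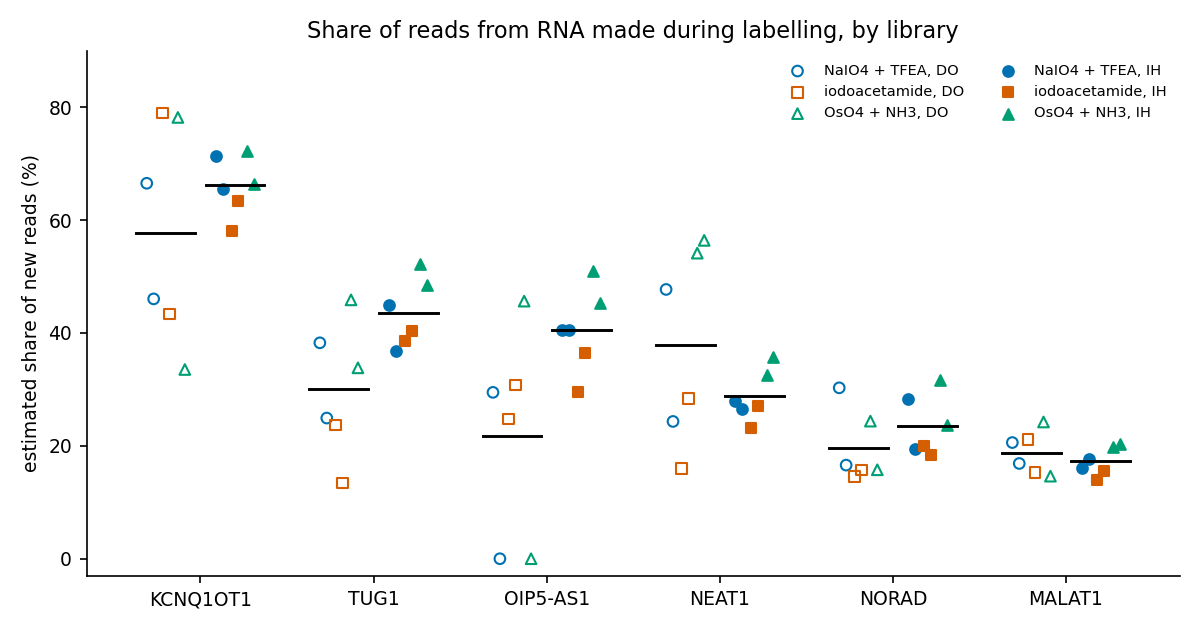
Estimated share of reads from RNA made during the 2 h of labelling for each member in the 12 labelled libraries. Open symbols are DO and filled symbols IH libraries, with shape and colour for the chemistry, and bars are means of 6 libraries; OIP5-AS1 is from the exon assignment. The IH points run from KCNQ1OT1 at a mean of 66.2% down to MALAT1 at 17.2%, and the DO points of KCNQ1OT1, NEAT1 and OIP5-AS1 are widely spread.

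If each RNA was at a steady level and the label acted at once, these shares correspond under IH to half-lives of 1.29 ± 0.19 h for KCNQ1OT1, 2.47 ± 0.45 h for TUG1, 2.76 ± 0.70 h for OIP5-AS1, 4.17 ± 0.75 h for NEAT1, 5.40 ± 1.30 h for NORAD and 7.47 ± 1.18 h for MALAT1 (SD, n = 6). Neither assumption was tested, and no allowance was made for cell growth. The ranges of mean ± SD overlap for all neighbours in this order except KCNQ1OT1 and TUG1. These half-lives come from HISAT-3N alone. With STAR the order of the new shares of NEAT1 and NORAD turned, at 22.7% and 24.2% under IH. The MALAT1 share under IH was 12.4% with STAR in place of 17.2%, whereas that of NORAD did not fall (23.6% with HISAT-3N).

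Degradation rate constants in the authors' deposited table covered MALAT1 in all 3 chemistries and NORAD in 2, but none of the other 4 members. For MALAT1 the authors' deposited table gave constants of 0.0730 under DO and 0.0787 under IH with periodate, 0.0634 and 0.0636 with iodoacetamide, and 0.0674 and 0.0969 with osmium. From DO to IH the authors' deposited table had log2 changes of 0.13, 0.03 and 0.55 and adjusted p of 0.697, 0.937 and 0.194, none of them past 0.05. For NORAD the authors' deposited table gave 0.126 and 0.136 with periodate (log2 change 0.16, adjusted p = 0.753) and 0.0846 and 0.103 with iodoacetamide (0.34, adjusted p = 0.553). The log2 changes are printed as the authors gave them and are not always the log2 ratio of the 2 constants.

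In the authors' deposited table a large share of transcripts changed: 53.3% of 2209 with periodate, 50.3% of 1600 with iodoacetamide and 48.6% of 2262 with osmium had an adjusted p under 0.05, with a median log2 change of 1.18, 1.14 and 1.19. The MALAT1 changes stood at the 10.2, 9.06 and 22.2 percentiles of those in the authors' deposited table. The rate from the mixture was 0.0923 ± 0.0064, 0.0802 ± 0.0067 and 0.112 ± 0.0022 per h for MALAT1 under IH with periodate, iodoacetamide and osmium (SD, n = 2). Under DO it was 0.104 ± 0.016, 0.101 ± 0.025 and 0.109 ± 0.042 per h (SD, n = 2). For NORAD it was 0.136 ± 0.063 under DO and 0.137 ± 0.041 under IH with periodate, and 0.0820 ± 0.0050 and 0.107 ± 0.0068 with iodoacetamide (SD, n = 2). The MALAT1 means lay above the authors' constants under both handlings in all 3 chemistries, and the NORAD means lay within 1 SD of them. The authors' constants carry no stated time unit, so the 2 sources are set side by side without a test.

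Proteins known to bind these RNAs or to share their nuclear bodies could be looked up only in that table, since the count table's identifiers have no symbols. Of 23 such genes, 14 were present in each chemistry, 13 of them in all 3 chemistries and 15 in any. In the authors' deposited table the rate constant was higher under IH at an adjusted p under 0.05 for 11 of 14 with periodate, 11 of 14 with iodoacetamide and 13 of 14 with osmium, against 52.6%, 48.9% and 48.1% of all transcripts, and lower for none. The others also had log2 changes above 0 that did not pass the threshold. The median log2 changes of all 14 were 1.42, 1.16 and 1.21, against 1.18, 1.14 and 1.19 for all transcripts in the authors' deposited table. The smallest changes were those of HNRNPK at 0.53 with periodate, and KHDRBS1 at 0.51 with iodoacetamide and 0.52 with osmium, in the authors' deposited table.

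Of 18 other long noncoding RNAs listed for comparison, none was in that table. Of 5 genes typical of HEK 293T, 3 had a constant in all 3 chemistries and 1 more in 2 of them, and of 5 markers of blood, liver and connective tissue cells none had one. A gene missing from that table may be unexpressed or below its filters, so this checks the cell line only in part.

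The count table gave each library in 7 alignments, and the choice among them changed the members' read numbers and shares. With STAR, settings D, MALAT1 had 40.7% more exonic reads in labelled IH libraries than with HISAT-3N, in 6 of 6 libraries, and its converted share was 15.9% ± 1.73 in place of 20.1% ± 2.63 (SD, n = 6). With HISAT2, settings D, the share was 11.2% ± 0.85 and with HISAT2, settings VL, 23.4% ± 0.73. The other members also had lower IH shares with HISAT2 D. NEAT1 stood at 18.8% in place of 31.2%, TUG1 at 29.8% in place of 45.7%, NORAD at 19.5% and KCNQ1OT1 at 50.4%. In unlabelled IH libraries HISAT2 VL gave MALAT1 a share of 13.7% ± 2.42, against 5.69% ± 0.86 with HISAT-3N (SD, n = 3). The settings codes are not defined in the sources used here.

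KCNQ1OT1 had the highest and MALAT1 the lowest mean converted share of the 5 members under IH in all 7 alignments, each in 6 of 6 libraries against its neighbour. The order of NEAT1 and NORAD turned with the alignment. NEAT1 was higher in 6 of 6 libraries with HISAT-3N and in 5 of 6 with HISAT2 VL, but in only 2 of 6 with each setting of STAR, where the means were 25.3% for NEAT1 and 26.8% for NORAD under settings D. With HISAT2 D and ML NEAT1 was higher in 3 and 4 of 6 libraries.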

How the data were processed

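The members and lists were chosen with earlier results of these data known. Reads were aligned to GRCh38 with HISAT-3N, HISAT2 or STAR by the authors, per the file's aligner column and the submitters' processing notes, which also name cutadapt, Picard, HTSeq and DESeq2. Versions and settings are not given in the sources used here. The authors deposited read counts for each combination of library, alignment, gene, transcript, intronic flag, T-to-C number and T number. Between 17.5% and 41.5% of a library's aligned reads named no single gene and stayed out of library sizes and tests. The authors' second deposited table holds bakR rate constants, their log2 changes and adjusted p-values. Of the 28 samples in the series, 10 of other chemistries were not analysed here.

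Counts with HISAT-3N, settings D, were tested with edgeR 4.0.16 (TMM, filterByExpr, quasi-likelihood, R 4.3.3) over all genes, contrasts being averaged over the chemistries. The converted share was tested in the same way on converted and other reads of each library. DESeq2 1.42.0 was an alternative. The edgeR tests of counts and of converted shares were run on simulated data with known changes. Unlike the libraries here, the simulated ones were independent and changed in few genes. DESeq2, the test against the median gene and the mixture were not simulated. Replicates differed by more than sampling noise in every group (chi-square over degrees of freedom 2.13 to 8.68). Same-numbered DO and IH libraries hardly deviated together (correlations -0.0126 to 0.0428 over all pairs of chemistries). The IH libraries did so little even among themselves (0.0419 to 0.0600), so this cannot tell whether numbers pair the handlings. All members were named by rule, as were the genes nearest to MALAT1 and NEAT1. Beyond them, lists were given by counts with their lowest member; 1 item is not reported here. RefSeq coordinates are of GRCh38.p14.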

Additional observations from a re-analysis of the deposited data

How the results depend on the processing

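Of 763 alternatives for single members, 750 gave the same result. Only results with a value in the main setting were counted. The converted-share tests of NEAT1, TUG1 and KCNQ1OT1, and all tests of OIP5-AS1, are thus outside this tally. In those 750, called changes kept their direction and call, uncalled ones stayed uncalled, and estimated new shares were counted as unmoved. Of the other alternatives, 7 lost a call, 1 gained one and 5 were new shares counted as moved, and none reversed a called value. Some DO shares counted as unmoved still shifted, by less than their SD. Their lowest alternative values were 26.6% against 37.8% for NEAT1, 23.0% against 30.0% for TUG1 and 14.6% against 21.8% for OIP5-AS1. All 5 members stayed called between the handlings in each alternative run, where up to 83.5% of all genes were called in labelled and up to 74.8% in unlabelled libraries (without a filter on low counts, 10358 of 24678 and 8854 of 24678), so this says little about the members. Without a filter on low counts, 1 member was called between labelled and unlabelled DO libraries (MALAT1), as were 0.393% of all genes. For the converted share between handlings, 1 member (TUG1) was called with at least 10 reads (60.6% of all genes), with at least 5 reads (51.9%), and by the exon assignment with at least 5 (52.0%), but not in the sums over chemistries (adjusted p = 0.0672; 48.0%). Against the median gene, 2 of 2 members were called (20.4% of all genes), 1 to 2 with a single library left out (12.8% to 21.4%), and 0 in the sums over chemistries (0.654%). NORAD was not called there with at least 5 reads (adjusted p = 0.0644). With the replicate number as a block, 5 members were called for exonic reads (83.5% of all genes), 0 for the converted share between handlings (85.7%), 0 between chemistries (0.0502%) and 2 for the change against the median gene (29.4%), so the block changed none of the members' calls. With STAR the new share moved to 13.1% (DO) and 12.4% (IH) for MALAT1, and under IH to 22.7% for NEAT1, 30.6% for OIP5-AS1 and 35.2% for TUG1. The causes of these changes were not tested. Alternatives on intronic reads were not run, as no member had enough of them. Depth limits NEAT1, TUG1, KCNQ1OT1 and OIP5-AS1 most, with 5 to 83 reads in a labelled DO library.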
